A study of Mus musculus with 7 samples.

Results

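Baiap3, Zcchc12, Resp18, Magel2, Ngb, Hap1, Ecel1, Peg10, Calcr and Lhx9 are 10 of the 23413 genes counted in cortex RNA-seq libraries, grouped here as genes of the ventral forebrain. They were taken by symbol, and the list was chosen by their CPM in these same libraries, in which all 10 were highest in 1 mouse. Total RNA was sequenced from frozen cortex of 7 mice of a transgenic amyloid model of Alzheimer's disease, 4 on the control diet (CD, written SD in the sample labels) and 3 on the ketogenic diet (KD). The mice were 13 months old and had been on their diet for 7 months, from the age of 6 months. The KD gave under 0.5% of its energy as carbohydrate, 10% as protein and 90% as fat, and the CD gave 74%, 10% and 16%. All 7 mice carried the model's transgenes, so both diets were compared within the amyloid model, and no library without the transgenes was analysed here. Both sexes were used in the study, and the sex of each mouse sequenced was not given in the sources used here.

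The hypothalamus, preoptic area and nearby ventral forebrain nuclei hold neurons that make peptide hormones and control feeding, body temperature and reproduction. Such neurons store peptides in dense-core granules, and several of the proteins described here act in that pathway. Baiap3 is a Munc13-related protein of dense-core vesicle traffic, Resp18 is a protein of endocrine secretory granules, Hap1 is the huntingtin-associated protein of vesicle transport, and Ecel1 is an endothelin-converting-enzyme-like membrane peptidase of neurons. Zcchc12 is a zinc finger coactivator of transcription and Lhx9 is a LIM homeodomain transcription factor. Magel2 is an imprinted gene of the Prader-Willi region that regulates protein ubiquitination and the sorting of endosomes. Peg10 is an imprinted gene derived from a retrotransposon, and Calcr is the calcitonin receptor. Ngb encodes neuroglobin, an oxygen-binding globin of neurons.

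Library totals ranged from 22272883 to 36614954 counts, and levels are given as CPM, a gene's counts scaled to the same library total. The floor of 3 counts lay between 0.0819 and 0.135 CPM. The 7 libraries did not form 2 sets by diet. On the first principal component of log2 CPM, which held 34.4% of the variance, the scores of KD replicate 3 (47.4) and CD replicate 4 (45.8) were far above those of the remaining 5, which lay between -27.0 and 2.25. Because KD replicate 3 is 1 of only 3 KD libraries and stands apart, fold changes between the diets are given below with and without it. No difference between libraries that shared a diet was small enough for counting error alone, with a chi-square per gene of 15.4 to 64.8. The p-values below weigh the difference between the diets against the spread between libraries, with 1 library per mouse. That spread joins differences between mice with those of tissue sampling and library preparation. In cortex tissue, fewer cells of a type and less RNA per cell cannot be told apart.

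All 10 genes had their highest level in KD replicate 3, and among the 15881 genes tested 22.9% did. For 9 of the 10, all but Resp18, that library was at least 2-fold above the next-highest library, against 1.27% of all genes tested. These levels were known when the genes were chosen, so the counts describe them and test nothing. Together the 10 genes summed to 971.2 CPM in KD replicate 3. They summed to between 146.5 and 200.7 CPM in the 4 CD libraries, and to 161.8 and 152.6 CPM in KD replicates 1 and 2. The smallest excess was that of Resp18, at 1.78 times the next-highest library, and the largest was that of Lhx9, at 27.3 times.

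**Figure D1:**
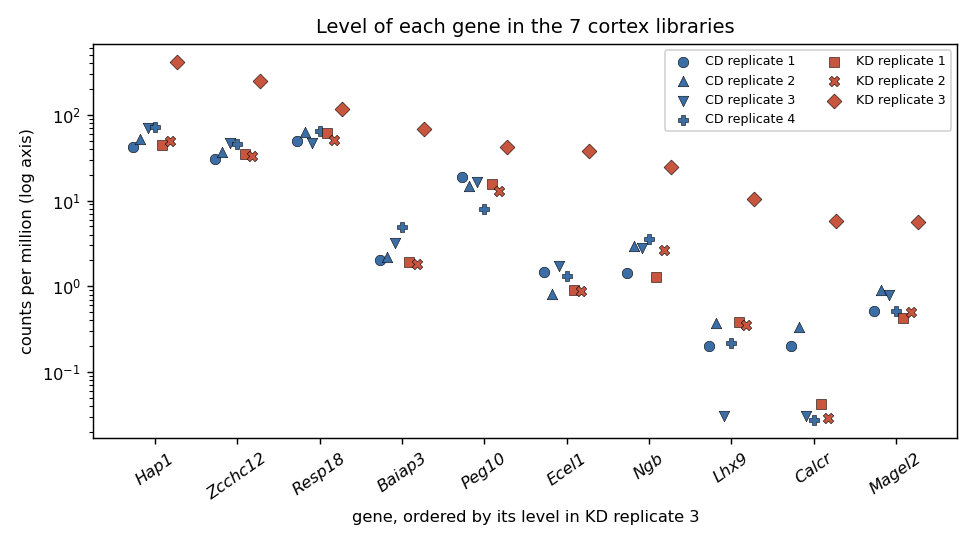
CPM of the 10 genes in each of the 7 libraries, on a log axis, with 1 point per library coloured by diet. KD replicate 3 is the highest point for all 10 genes, and for 8 of the 10 the other 2 KD points overlap the range of the CD points, while for Baiap3 and Magel2 they lie below it.

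Promoters of 4 of these genes are shown because these genes shared a peak in 1 library, the value by which they were chosen. Each is given as the 250 bases before the annotated start, 5′ to 3′ on the gene's strand, from RefSeq on GRCm38.p6, the assembly also named mm10. The windows are chr17:25256365-25256614 (minus strand) for Baiap3, chr11:100356129-100356378 (minus strand) for Hap1, chrX:36195654-36195903 (plus strand) for Zcchc12 and chr7:62376729-62376978 (plus strand) for Magel2. Capitals mark matches to 4 motifs on either strand. TATAAA is the TATA box. TGACG, or CGTCA on the other strand, is part of the cAMP response element. GGGCGG, or CCGCCC on the other strand, is the GC box. TAATTA, which reads alike on both strands, is a homeodomain core. No matches overlapped in these windows.
Baiap3: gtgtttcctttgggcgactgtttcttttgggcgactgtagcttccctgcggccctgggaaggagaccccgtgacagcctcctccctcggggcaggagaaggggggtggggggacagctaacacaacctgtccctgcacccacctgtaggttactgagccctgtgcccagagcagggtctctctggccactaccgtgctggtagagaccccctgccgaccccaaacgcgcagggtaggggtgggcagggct
Hap1: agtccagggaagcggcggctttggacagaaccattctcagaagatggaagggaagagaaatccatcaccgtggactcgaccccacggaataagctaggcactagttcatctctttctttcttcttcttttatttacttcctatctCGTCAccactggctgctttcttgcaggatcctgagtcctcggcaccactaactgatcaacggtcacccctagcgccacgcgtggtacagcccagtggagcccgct
Zcchc12: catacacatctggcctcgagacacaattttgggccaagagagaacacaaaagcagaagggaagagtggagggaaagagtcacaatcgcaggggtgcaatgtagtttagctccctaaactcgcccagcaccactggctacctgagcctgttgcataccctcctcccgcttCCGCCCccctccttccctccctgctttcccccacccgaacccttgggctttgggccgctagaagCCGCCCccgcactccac
Magel2: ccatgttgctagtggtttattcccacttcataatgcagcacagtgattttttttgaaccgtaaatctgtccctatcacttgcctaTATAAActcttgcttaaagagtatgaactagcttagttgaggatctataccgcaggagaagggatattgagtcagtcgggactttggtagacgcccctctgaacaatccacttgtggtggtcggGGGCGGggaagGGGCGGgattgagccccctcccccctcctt

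No motif was shared by all 4 promoters. The Baiap3 window held none of the 4 motifs. The Hap1 window held CGTCA 105 bases before the start, the Zcchc12 window held CCGCCC 81 and 17 bases before it, and the Magel2 window held TATAAA 165 bases before it and GGGCGG 41 and 30 bases before it. The table held windows for 8 of the 10 genes, not for Ngb or Peg10, and 10 windows in all, since some genes have more than 1 start. Of these 8 genes, 1 had TATAAA, 2 had TGACG, 3 had GGGCGG and 0 had TAATTA. Counted by window, as in the shares that follow, 1 of the 10 held TATAAA, 4 TGACG, 3 GGGCGG and 0 TAATTA. The windows of Hap1 overlap each other. Among 32851 promoter windows of the same length, 12.4% held TATAAA, 17.8% held TGACG, 32.7% held GGGCGG and 4.84% held TAATTA, on either strand.

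Among the genes of the secretory pathway, Baiap3 (chr17:25242659-25256364, minus strand) was at 2.02, 2.21, 3.17 and 4.92 CPM in CD replicates 1 to 4, and at 1.92, 1.82 and 67.9 CPM in KD replicates 1 to 3. KD replicate 3 was 13.8 times the next-highest library, CD replicate 4, and both other KD libraries lay below every CD library. Baiap3 overlaps Tsr3 on the opposite strand and the microRNA gene Mir3547 on its own strand, and the strand setting of the counting is not given in the sources used here.

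Ecel1 (chr1:87147655-87156521, minus strand) was at 1.48, 0.803, 1.71 and 1.31 CPM in the CD libraries and at 0.898, 0.882 and 37.9 CPM in the KD libraries. KD replicate 3 was 22.2 times the next-highest library, and the other 6 libraries differed among themselves by at most 2.13 times. KD replicates 1 and 2 lay inside the CD range.

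Hap1 (chr11:100347327-100356128, minus strand) had the highest CPM of the 10 in KD replicate 3, without allowing for length. It was at 42.5, 52.5, 70.8 and 71.4 CPM in the CD libraries and at 44.9, 50.02 and 413.9 CPM in the KD libraries. KD replicate 3 stood 5.80-fold above CD replicate 4, the next highest, while the other KD libraries fell inside the CD range.

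Resp18 (chr1:75272199-75278415, minus strand) showed the least excess. It was at 49.1, 62.9, 46.98 and 65.3 CPM in the CD libraries and at 61.9, 50.5 and 116.0 CPM in the KD libraries. The other 6 libraries spanned 1.39-fold, so KD replicate 3 still lay outside their range. The antisense gene Gm28902 overlaps it.

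The 2 transcriptional regulators differed in level. Zcchc12 (chrX:36195904-36199158, plus strand) was at 30.3, 36.4, 47.3 and 45.4 CPM in the CD libraries and at 34.6, 32.9 and 246.5 CPM in the KD libraries, so that KD replicate 3 was 5.22 times the next-highest library. The other KD libraries lay inside the CD range.

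Lhx9 (chr1:138825186-138848577, minus strand) was close to the floor outside KD replicate 3. Its counts were 7, 11, 1 and 8 in the CD libraries and 9, 12 and 234 in the KD libraries. In CPM these were 0.1995, 0.368, 0.0305 and 0.219 against 0.385, 0.353 and 10.5, so that KD replicate 3 was 27.3 times KD replicate 1, the next highest. The range of the other 6 libraries, 12.6-fold, rests on between 1 and 12 counts.

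Of the imprinted genes, Magel2 (chr7:62377010-62381640, plus strand) was at 0.513, 0.903, 0.793 and 0.519 CPM in the CD libraries and at 0.428, 0.4996 and 5.66 CPM in the KD libraries, from 10 to 27 counts in 6 libraries and 126 in KD replicate 3. That library was 6.27 times the next-highest, CD replicate 2, and KD replicates 1 and 2 lay below every CD library. The neighbouring imprinted genes did not share this size of difference. Ndn, which encodes necdin, was at 261 CPM in KD replicate 3 against 127.7 to 167 CPM in the other 6 libraries, 1.56 times the next highest. Mkrn3, a ubiquitin ligase gene, was at 0.494 CPM in KD replicate 3, below the 0.558 to 1.37 CPM of the other 6.

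Peg10 (chr6:4747306-4760517, plus strand) was at 18.8, 14.7, 16.3 and 8.03 CPM in the CD libraries and at 15.6, 13.02 and 42.5 CPM in the KD libraries. KD replicate 3 was 2.26 times the next-highest library, CD replicate 1, and the lowest library was CD replicate 4. Calcr (chr6:3685680-3764714, minus strand) lies on the same chromosome as Peg10, with Sgce between them. Its counts were 7, 10, 1 and 1 in the CD libraries and 1, 1 and 130 in the KD libraries. In CPM these were 0.1995, 0.334, 0.0305 and 0.0273 against 0.0428, 0.0294 and 5.84.

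Both genes therefore peaked in the same library, Peg10 from a moderate level and Calcr from a few counts. Of the genes nearby, 3 were compared, and KD replicate 3 lay inside the range of the other 6 libraries for each. Sgce, which encodes epsilon-sarcoglycan, was at 25.6 CPM in KD replicate 3 against 20.7 to 27.6 CPM in the other 6 libraries. Ppp1r9a, which encodes neurabin, was at 623 CPM against 495.9 to 826 CPM, and Asb4, a ubiquitin ligase adaptor gene, was at 0.943 CPM against 0.171 to 1.23 CPM.

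Ngb (chr12:87097531-87102539, minus strand) was at 1.43, 2.98, 2.78 and 3.58 CPM in the CD libraries and at 1.28, 2.62 and 24.5 CPM in the KD libraries. KD replicate 3 was 6.85 times CD replicate 4, the next highest. The other 6 libraries spanned 2.79-fold, with KD replicate 1 lowest and both diets mixed along the range.

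Levels of different genes were compared per kilobase of exon. In the CD libraries the order was Resp18 at 54.3 CPM per kilobase, Zcchc12 at 17.5, Hap1 at 15.75, Peg10 at 2.17, Ngb at 1.56, Baiap3 at 0.602, Ecel1 at 0.379, Magel2 at 0.147, Calcr at 0.0378 and Lhx9 at 0.0215, each as the mean of 4 libraries. The CD ranges of Zcchc12 and Hap1 overlapped, as did those of Peg10 and Ngb, Ngb and Baiap3, Baiap3 and Ecel1, and Calcr and Lhx9. The other neighbours in this order did not overlap. In KD replicate 3 Resp18, Hap1 and Zcchc12 were at nearly the same level, 112, 109.9 and 108 CPM per kilobase, and Ngb, Baiap3 and Ecel1 were at 14.2, 13.3 and 10.8 CPM per kilobase.

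Outside KD replicate 3 the 10 genes did not all move as a block, though some of them moved alike. Each library was compared, for each gene, with the median of the 6 libraries other than KD replicate 3. All 10 genes were above that median in KD replicate 3, 8 in CD replicate 2, 7 in CD replicate 3, 7 in CD replicate 4, 4 in KD replicate 1, 3 in CD replicate 1 and 1 in KD replicate 2. The median log2 difference over the 10 genes was 3.30 in KD replicate 3, with a range from 1.05 to 6.76, and between -0.13 and 0.26 in the other libraries. Among those libraries, Baiap3, Zcchc12 and Hap1 were highest in CD replicates 3 and 4. Their differences there were 0.58 and 1.21 for Baiap3, 0.41 and 0.36 for Zcchc12, and 0.47 and 0.48 for Hap1. By contrast, Resp18 was lowest in CD replicate 3 (-0.25) and Peg10 in CD replicate 4 (-0.91). The second-highest library was CD replicate 4 for Baiap3, Resp18, Ngb and Hap1, CD replicate 3 for Zcchc12 and Ecel1, CD replicate 2 for Magel2 and Calcr, CD replicate 1 for Peg10 and KD replicate 1 for Lhx9. CD replicate 4, which lay beside KD replicate 3 on the first principal component, had the highest summed level of these 6 libraries, 200.7 CPM against 971.2 CPM in KD replicate 3, and it was the lowest library for Peg10. For Calcr it held 1 count, as did CD replicate 3 and KD replicates 1 and 2.

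KD was compared with CD to ask which cortical genes differ between the diets, with the edgeR quasi-likelihood test over 15881 genes. Of the 9 genes that passed the filter on low counts, all 9 had a fitted log2 fold change above 0, against 49.0% of all genes tested. Calcr was removed by the filter. The gene choice used these libraries, so the following values are a description. Baiap3 was at 23.9 ± 38.1 CPM on KD (SD, n = 3) and at 3.08 ± 1.32 CPM on CD (SD, n = 4), with a log2 fold change of 2.94 (SE 1.14). Hap1 was at 169.6 ± 211.6 CPM on KD and at 59.3 ± 14.2 CPM on CD, with a log2 fold change of 1.51 (SE 0.70). In both, the KD standard deviation exceeded the KD mean.

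The same held for Zcchc12, at 104.7 ± 122.8 CPM on KD against 39.8 ± 7.94 on CD, for Ecel1, at 13.2 ± 21.4 against 1.33 ± 0.385 CPM, for Ngb, at 9.47 ± 13.04 against 2.69 ± 0.909 CPM, for Magel2, at 2.20 ± 2.999 against 0.682 ± 0.197 CPM, for Lhx9, at 3.75 ± 5.85 against 0.204 ± 0.138 CPM, and for Calcr, at 1.97 ± 3.35 against 0.148 ± 0.148 CPM. Resp18, at 76.1 ± 35 against 56.1 ± 9.37 CPM, and Peg10, at 23.7 ± 16.3 against 14.5 ± 4.60 CPM, were the exceptions. The CD and KD ranges overlapped for all 10 genes, and for 4.2% of all genes tested they did not.

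No gene passed an adjusted p of 0.05 in the edgeR quasi-likelihood test, and the adjusted p was 0.979 for each of the 9 genes as for the lowest of all genes (0.0% of all genes called). At a raw p of at most 0.01, the level the study used, 1 of the 9 passed, Lhx9, with a log2 fold change of 4.16 (SE 1.25), against 0.321% of all genes in either direction and 0.151% on the KD side. At a raw p under 0.05 there were 3, Baiap3, Ecel1 and Lhx9, all higher on KD, against 1.66% of all genes on that side. By limma-voom and the edgeR likelihood-ratio test, 0 of the 9 passed the adjusted p. DESeq2 gave a p for only 3 of the 9, Resp18, Ngb and Peg10, of which 0 passed, and none for the other 6.

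Without KD replicate 3, 7 of the 9 genes had a log2 fold change under 0, as did 52.7% of all genes tested in that fit. The genes were chosen by levels that peaked in KD replicate 3. Lower fold changes without it therefore follow from the choice and test nothing. The log2 fold change of Baiap3 was then -0.69 (SE 0.39), that of Ecel1 -0.55 (SE 0.40), that of Magel2 -0.52 (SE 0.47), that of Ngb -0.43 (SE 0.43), that of Hap1 -0.30 (SE 0.21) and that of Zcchc12 -0.22 (SE 0.18). Peg10 was at -0.0025 (SE 0.32). Resp18, at 0.03 (SE 0.16), and Lhx9, at 0.87 (SE 0.75), stayed above 0. None reached a raw p of at most 0.01, which 0.204% of all genes did. In CPM, KD replicates 1 and 2 lay below all 4 CD libraries for Baiap3 and Magel2, and overlapped the CD range for the other 8, where 7.15% of all genes lay below.

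**Figure D2:**
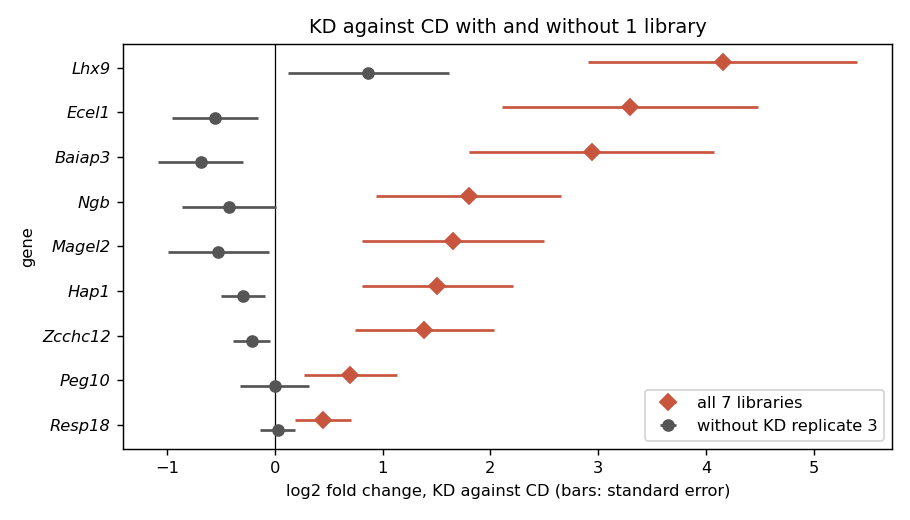
Fitted log2 fold change of KD over CD for the 9 tested genes, with bars of 1 SE, with all 7 libraries and without KD replicate 3. With all libraries the 9 values lie between 0.44 and 4.16, and without KD replicate 3 they lie between -0.69 and 0.87.

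Other genes known from the ventral forebrain were examined in 4 lists of 63 genes, of which 32 were tested: neuropeptides, transcription factors, receptors and other genes, and markers of basal forebrain cholinergic neurons. KD replicate 3 was the highest library for 17 of the 32, against 22.9% of all genes tested. It was at least 2-fold above the next-highest for 10, or 31.3%, against 1.27% of all genes tested. The lists were chosen with earlier results of these data known, so these counts describe them and test nothing. The counts also leave out genes too low to be tested, among them Avp, Oxt, Hcrt and Otp. The tested genes of the lists had a median log2 fold change of 0.20 for KD over CD, against -0.00 over all genes. Of the 32, 19 were above 0, where 49.0% of all genes were. Without KD replicate 3 the median was -0.31, and 9 of 32 were above 0. The 4 tested transcription factors, Nkx2-2, Zic1, Zic2 and Zic5, had a median of -0.32, and 0 were 2-fold above the next library in KD replicate 3. The other transcription factors of the list were too low to be tested. The 3 tested cholinergic markers were all lower on KD, with a median of -0.67, and KD replicate 3 was the highest library for 0. Of these, Chat was at 0.180 CPM in KD replicate 3 against 0.246 to 0.885 CPM in the other 6 libraries. A raw p of at most 0.01 was reached by 1 of the 32, Irs4, an insulin receptor substrate. Its log2 fold change was 3.89 (SE 1.17), with an adjusted p of 0.979 in the edgeR test. Outside KD replicate 3 Irs4 had 4 to 20 counts a library, so it passed the filter on low counts with the help of that library. Its log2 fold change was 0.78 without KD replicate 3.

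The receptors and other genes held 9 of those 10. Irs4 was at 10.2 CPM in KD replicate 3 against 0.122 to 0.588 CPM in the other 6 libraries, and Gabrq, which encodes the GABA-A receptor theta subunit, was at 7.68 CPM against 0.228 to 0.732. Esr1, the estrogen receptor alpha gene, was at 16.9 CPM against 1.24 to 3.48, and Trhr, the receptor for thyrotropin-releasing hormone, was at 59.5 CPM against 3.31 to 11.2. Ahi1, whose protein binds Hap1, was at 808.5 CPM against 213.7 to 356.6. These genes had their highest level in the library where the 10 genes peaked.

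Dlk1, an imprinted gene of the Notch ligand family, was at 7.498 CPM against 0 to 0.874, AW551984 was at 74.2 CPM against 1.60 to 6.01, and Sytl4, a granule-docking protein, was at 5.39 CPM against 0.529 to 1.67. Gpr101, an orphan receptor, was at 63.8 CPM in KD replicate 3, and the highest of the other 6 was 17.7 CPM. The list was not raised throughout, since Pgr, the progesterone receptor gene, was at 54.7 CPM, below the 67.7 to 76.7 CPM of the other 6 libraries. The 22 genes of the list summed to 1802 CPM in KD replicate 3, and to between 695.5 and 904 CPM in the CD libraries and 738 to 743 CPM in KD replicates 1 and 2. Most of the 1802 CPM came from Ahi1 (808.5), Gprasp2 (357.8) and Ndn (261), so the sum says little about the other genes of the list. Of the 19 tested, 14 had a log2 fold change above 0, against 49.0% of all genes. The median of the 19 was 0.33, and -0.24 without KD replicate 3.

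**Figure D3:**
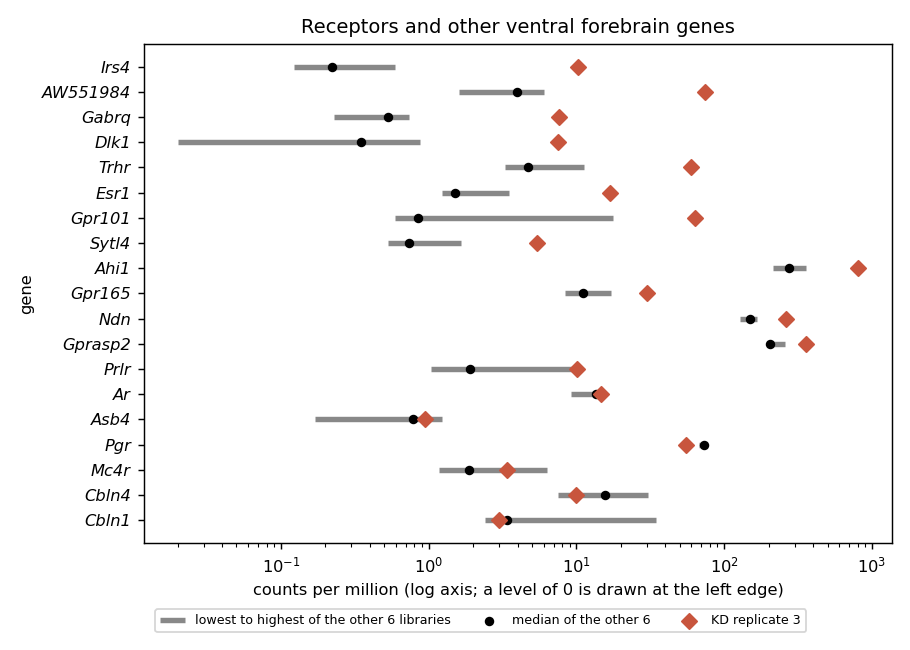
CPM of 19 receptors and other ventral forebrain genes on a log axis, with the range (bar) and median (point) of the other 6 libraries and the level in KD replicate 3 (diamond). The diamond lies right of the bar by at least 2-fold for 9 of the 19 genes, from Irs4 to Ahi1, and left of it for Pgr.

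Among the neuropeptides, Trh, the thyrotropin-releasing hormone gene, was at 44.1 CPM in KD replicate 3 against 0.588 to 10.1 CPM in the other 6, the highest of these being CD replicate 4. Ucn3, the urocortin 3 gene, had 41 counts in KD replicate 3 and 0 in each other library, at least 14.3-fold higher with a floor of 3 counts per library. Nts, the neurotensin gene, was at 15.6 CPM in KD replicate 3, inside the range of 0.470 to 21.6 CPM of the other 6. The summed neuropeptides were at 71.4 CPM in KD replicate 3, 8.06 to 36.5 CPM on CD, where CD replicate 4 was the highest, and 5.43 and 10.7 CPM in KD replicates 1 and 2. Of the 71.4 CPM, 44.1 CPM were Trh and 15.6 CPM were Nts.

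Several defining genes of hypothalamic neurons were nevertheless at or near 0 in KD replicate 3. It held 3 counts of Avp, the vasopressin gene, 1 of Oxt, the oxytocin gene, 0 of Hcrt, the orexin gene, and 0 of Pmch, the gene of melanin-concentrating hormone, where 0 counts allow a level of up to 0.135 CPM. Of the transcription factors, it held 5 counts of Nkx2-1, 1 of Otp, 1 of Nr5a1, 2 of Rax and 0 of Six6. Sim1, at 26 counts against at most 8 in another library, and Isl1, at 27 against at most 7, were higher there. So were Six3, at 19 against at most 9, and Lhx8, at 7 against at most 2. Nkx2-2, Zic1 and Zic5 lay inside the range of the other libraries. The summed transcription factors were at 36.3 CPM in KD replicate 3, below the 46.6 CPM of CD replicate 4. Most of both sums came from Zic1 and Zic2. These were at 6.60 and 23.9 CPM in KD replicate 3 and at 20.2 and 22.9 CPM in CD replicate 4. Taken gene by gene, the label ventral forebrain is met by some of its markers and not by others.

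Genes that share the members' known roles were examined next. The 17 genes of the neuroendocrine secretory granule, such as those of the granins and prohormone convertases, summed to 6110 CPM in KD replicate 3, 5971 to 6239 CPM on CD, and 5890 and 6367 CPM in KD replicates 1 and 2. None was 2-fold above the next-highest library, 6 of 17 were higher on KD, and their median log2 fold change was -0.02, and 0.00 without KD replicate 3. Of 33 imprinted genes, 32 were tested and 22 were higher on KD, where 49.0% of all genes tested were. In KD replicate 3, 4 of the 32, or 12.5%, were at least 2-fold above the next library, against 1.27% of all genes. Among these 4 was Dlk1, which is also counted in the list of receptors and other genes. The median log2 fold change of the 32 was 0.11, and -0.09 without KD replicate 3.

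Of the 8 genes for calcitonin family ligands and receptor partners of Calcr, 6 were tested and none was 2-fold above the next library. Their median log2 fold change was -0.20, and -0.16 without KD replicate 3. The Ramp proteins, which pair with the calcitonin receptor, did not share a direction in KD replicate 3. Ramp1 was at 43.6 CPM there against 33.2 to 41.6 CPM in the other 6 libraries, Ramp2 at 9.65 CPM against 6.23 to 12.7 CPM, and Ramp3 at 2.92 CPM against 6.53 to 9.58 CPM.

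**Figure D4:**
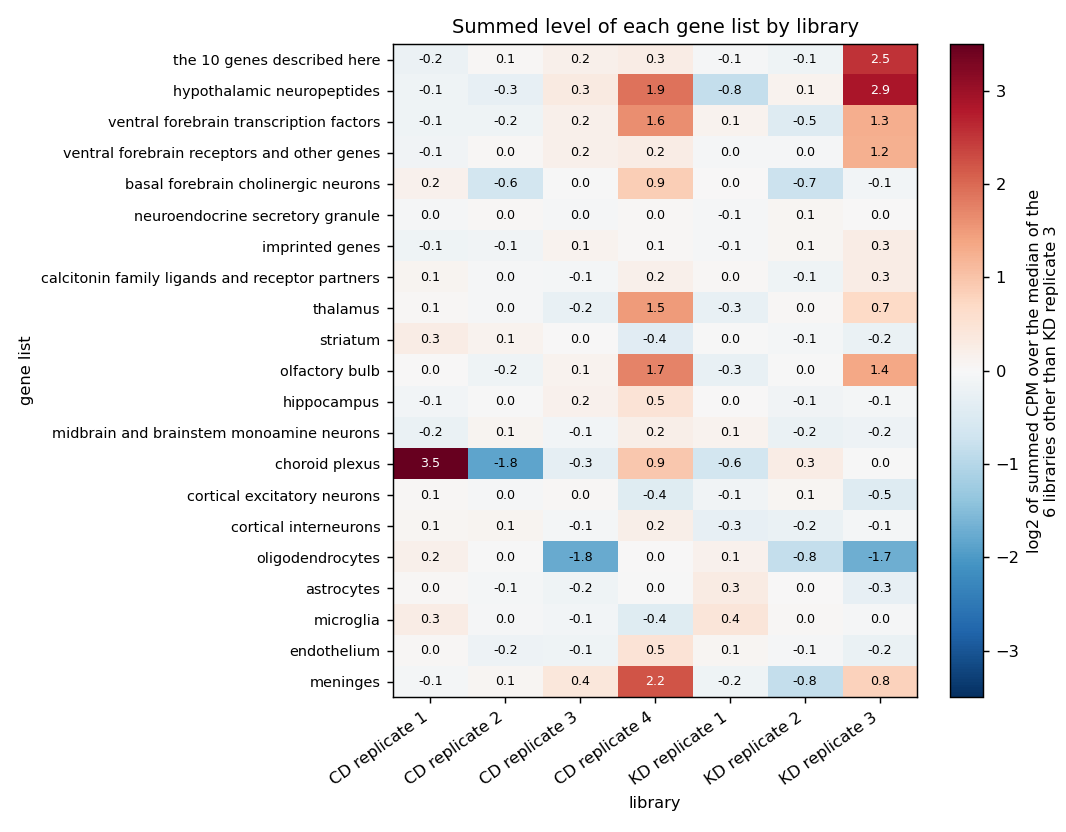
Log2 of each list's summed CPM over its median in the 6 libraries other than KD replicate 3, with 1 row per list and 1 column per library, coloured from lower to higher. The 10 genes described here stand at 2.53 in KD replicate 3 and between -0.20 and 0.26 in the other libraries, the granule genes stay near 0 throughout, and CD replicate 4 is above 1 for neuropeptides (1.90), ventral forebrain transcription factors (1.63), thalamus (1.501), olfactory bulb (1.74) and meninges (2.21).

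The genes whose pattern was most like the 10 were sought among the tested non-member genes with a mean of at least 1 CPM, by the root mean square difference between a gene's centred log2 CPM and the members' mean over 7 libraries. The 10 nearest were Crb1 at 0.239, Cd36, Tacr1, Zim1, Plcz1, Atp6v1c2, Filip1, Rxfp3, Slc29a4 and Arhgap6 at 0.530, against a median of 1.29 over all candidates and 0.307 to 1.33 for the members themselves. Crb1, an apical polarity gene, was at 13.6 CPM in KD replicate 3 against 0.884 to 1.69 CPM in the other 6. Tacr1, the substance P receptor gene, was at 11.04 CPM against 0.656 to 1.495, and Rxfp3, the relaxin-3 receptor gene, was at 15.8 CPM against 2.01 to 3.67. Zim1, an imprinted zinc finger gene, was at 9.38 CPM against 0.647 to 1.86. This likeness rests largely on the 1 library in which all of them were highest.

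Markers of other regions and cell types were also summed by library, and their part in the results above was not tested. The 12 cortical excitatory neuron markers summed to 1090 CPM in KD replicate 3, the lowest of the 7 libraries, against 1117 to 1556 CPM on CD and 1375 and 1562 CPM in the other KD libraries. The sums of astrocyte markers (5036 CPM) and endothelium markers (212 CPM) were also lowest in KD replicate 3. For the other lists of regions and cell types, KD replicate 3 lay inside the range of the other libraries. The 10 oligodendrocyte markers summed to 1260 CPM against 1227 to 4652 CPM on CD and 4573 and 2342 CPM in the other KD libraries, with CD replicate 3 as low. Olfactory bulb markers summed to 105 CPM against 36.8 to 136 CPM on CD. Of the 105 CPM, 44.1 CPM were Trh, which is also in the neuropeptide list, and 8 of the 10 tested markers were lower on KD. Eomes, at 0.404 CPM in KD replicate 3 against up to 7.76 CPM in the other 6, and Th, at 0.943 CPM against up to 10.6 CPM, lay far below the highest of these, CD replicate 4. Thalamus markers summed to 188 CPM against 97.8 to 329 CPM. Meningeal markers summed to 737 CPM against 407 to 1954 CPM. In these 3 lists CD replicate 4 was the highest library, and the 10 genes summed to 200.7 CPM in it. Among all 199 tested genes of the lists a raw p of at most 0.01 was reached by 2, Irs4 and the choroid plexus marker Aqp1, a water channel, with a log2 fold change of -2.77 (SE 0.82) and -2.36 without KD replicate 3.

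The number of genes at least 2-fold above the next-highest library was 202 in KD replicate 3 and 266 in CD replicate 4, or 1.27% and 1.68% of those tested, and between 2 and 37 in the other 5 libraries. Of the 202, 8 were genes described here, and Calcr, which also passed this mark, was not among the genes tested.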

How the data were processed

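Per the labels and the study's methods, the authors extracted RNA from 10 mg of frozen cortex, made stranded total RNA libraries, sequenced 50-base read pairs, and aligned them to mm10 with STAR. The deposited values are raw counts per gene symbol, 1 file per mouse, with no normalization. Tool versions, annotation and strand setting are not given in the sources used here, so reads of genes that overlap, or lie antisense, cannot be told apart.

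Counts were scaled to CPM by library total, and log2 CPM used a prior count of 0.5. KD was tested against CD with the edgeR 4.0.16 quasi-likelihood test (R 4.3.3, filterByExpr, TMM, robust) and Benjamini-Hochberg adjustment over 15881 genes. The test was tested on simulated data. Alternatives used limma 3.58.1 and DESeq2 1.42.0, other scalings and filters, and each library left out. Coordinates and exon lengths are from GENCODE M21.

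The 10 genes, the lists and the tests were chosen with earlier results of these data known. Named besides them were list genes at a raw p of at most 0.01, list genes of highest mean or largest fold change, defining markers near 0, and the 10 genes of nearest pattern. Other list genes, neighbouring genes and those 2-fold above the next library in KD replicate 3 were named after their values were seen. The full allele name of the mouse model is not reported here.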

Additional observations from a re-analysis of the deposited data

How the results depend on the processing

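With TMM-scaled totals KD replicate 3 was also the highest library for all 10 genes, and 2-fold above the next for 9. The TMM factors lay between 0.978 and 1.04, too close to 1 to change these counts, so this does not test the excess. The diet fold changes of these genes depended on KD replicate 3, which follows from how the genes were chosen. Without it the log2 fold changes were -0.69 for Baiap3, -0.22 for Zcchc12, -0.52 for Magel2, -0.43 for Ngb, -0.30 for Hap1, -0.55 for Ecel1 and -0.0025 for Peg10. With another library left out the highest were 3.49, 1.81, 2.14, 2.32, 1.96, 3.85 and 0.989 in that order. With CD replicate 4 left out as well as KD replicate 3, an alternative chosen after seeing the data, they were -0.39, -0.16, -0.64, -0.26, -0.21, -0.57 and -0.21 in that order. Of 151 member fold changes under alternatives, these 14 turned direction and 0 did under the other settings. The median over the tested genes was 1.66, and -0.30 to 2.23 with 1 library left out, the lowest without KD replicate 3 and the highest without KD replicate 1, where Calcr passed the filter too (2.14 over the same 9). It was -0.21 without both libraries, 0.72 with limma-voom and 0.88 with log2 CPM of Xist as a covariate.

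The count of these genes at a raw p of at most 0.01, 1 as reported, was 0 with library size alone, with a filter of at least 1 count, with at least 1 CPM in 3 libraries (7 genes tested, without Lhx9 and Magel2), with DESeq2 (which gave a p for 3 of the 9, not for Lhx9), with limma-voom or the Xist covariate, and without both libraries, and 3 with the likelihood-ratio test. It ranged from 0 to 3 with 1 library left out, with 3 without KD replicate 1 or KD replicate 2 and 0 without any other. Over all genes the count of 51 became 103 with the likelihood-ratio test, 120 with DESeq2 and 206 with the Xist covariate, and lay between 19 (CD replicate 1 left out) and 211 (CD replicate 3 left out). At an adjusted p under 0.05 it was 1 with the likelihood-ratio test and with the Xist covariate, and 0 with any library left out. The count of list genes at a raw p of at most 0.01, 2 of 199 (Irs4 and Aqp1), was 1 with RLE size factors, library size alone or the 1 CPM filter, 5 with the likelihood-ratio test, 4 with DESeq2, 0 with limma-voom and 8 with the Xist covariate, and ranged from 0 to 3 with 1 library left out. The cause of these differences was not tested.

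The replicate numbers are shared by the diets, and the sources used here do not say that they pair the mice. Deviations from the group means correlated at 0.227, 0.178 and 0.0888 between the diets for numbers 1 to 3. Unlike numbers were not compared, so these values cannot decide whether mice were paired. With the replicate block, which drops CD replicate 4, 0 of the 9 genes and 182 of all genes reached a raw p of at most 0.01, and the median fold change of the 9 genes was 0.82. Outside KD replicate 3, Lhx9 and Calcr had at most 12 and 10 counts a library, so their values there carry a large counting error.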
